A study of Homo sapiens with 9 samples.

Results

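The 10 genes described here form the p38 mitogen-activated protein (MAP) kinase axis: the p38 kinases MAPK14, MAPK11, MAPK12 and MAPK13, the kinases they activate, MAPKAPK2, MAPKAPK3 and MAPKAPK5, and the MAPKAPK2 substrates ZFP36, ZFP36L1 and HSPB1. They are 10 of the 18143 genes listed. All 10 passed the filter on low counts. MAPKAPK2 was chosen by its measured level, which was low after SiREV1#1 and not after SiREV1#2, so its values are given without a test, and the other 9 were taken as its kinases, paralogs and substrates. All libraries came from A549, a human lung adenocarcinoma cell line, harvested 48 h after transfection with a scramble siRNA, with SiREV1#1 or with SiREV1#2, both directed against REV1, a DNA polymerase of translesion synthesis. Each of the 3 groups had 3 libraries of poly(A) RNA, with no label saying whether these were separate cultures, so p-values measure the spread between these libraries. The cells carried no other treatment or allele named in the labels, and each REV1 siRNA stands for 1 sequence.

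In the p38 pathway, stress and cytokine signals pass through MAP kinase kinases to the p38 kinases, which phosphorylate and so activate MAPKAPK2 (also called MK2). Active MAPKAPK2 phosphorylates ZFP36 (tristetraprolin) and its relative ZFP36L1, proteins that bind AU-rich elements in the 3′ untranslated regions (UTRs) of cytokine and growth-factor transcripts and promote their decay, and phosphorylation weakens that activity. It also phosphorylates HSPB1 (HSP27), a small heat shock protein that regulates actin filaments. Most of this regulation is through phosphorylation, which RNA levels do not show. In bulk RNA, fewer cells with a transcript and less of it per cell cannot be told apart.

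Short matches to the siRNA were looked for in these transcripts, because a small RNA can act on a transcript through bases 2 to 8 of its guide strand, the seed. The copies in the 3′ UTRs of the members are printed here because MAPKAPK2 and MAPK14 were lower after SiREV1#1, and they come from annotated transcripts in GENCODE release 29 (build GRCh38), with the REV1 target for comparison. The 7 bases in capitals pair with the SiREV1#1 seed, and all sequences are 19 bases of the sense strand, 5′ to 3′.
REV1, coding sequence, exon 18 of 23, minus strand, chr2:99404474-99404492: gaacagtgacgCAGGAATa
MAPKAPK2, 3′ UTR, 47 bases after the stop codon, plus strand, chr1:206732754-206732772: ataactctctaCAGGAATa
MAPKAPK2, 3′ UTR, 1371 bases after the stop codon, plus strand, chr1:206734078-206734096: gggagaggtggCAGGAATa
MAPK14, 3′ UTR, 1253 bases after the stop codon, plus strand, chr6:36109689-36109707: agggcttttccCAGGAATa
MAPKAPK5, 3′ UTR, 4197 bases after the stop codon, plus strand, chr12:111897247-111897265: actgtgcctggCAGGAATt
MAPKAPK5, 3′ UTR, 7103 bases after the stop codon, plus strand, chr12:111900153-111900171: caaatcacactCAGGAATt

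MAPKAPK2 held 2 copies of the SiREV1#1 word in the longest annotated 3′ UTR, which has 1565 bases. Both of its coding transcripts held the word in the 3′ UTR, and 1 of them held it in 2 copies. MAPK14 held 1 copy, present in 2 of 5 coding transcripts with an annotated stop codon. MAPKAPK5 held 2 copies, both in a 3′ UTR of 9177 bases that belongs to 1 of 3 coding transcripts. The MAPKAPK2 and MAPK14 copies were followed by A, as is the REV1 site, and the MAPKAPK5 copies by T. Outside the word the copies were unlike the REV1 site: the MAPKAPK2 windows were identical to it at 9 and 11 of 19 bases, and that of MAPK14 at 10.

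The other 7 members held no copy of the word in the 3′ UTR, and ZFP36L1 and MAPKAPK5 each held 1 in the coding sequence. No member held the seed match of SiREV1#2 (GGACGAC) or of the scramble siRNA (TGTCACG) in the 3′ UTR. Such words are common: of 13816 tested genes with an annotated 3′ UTR, searched on the transcript strand, 15.7% held CAGGAAT, 2.7% held it in 2 or more copies and 3.9% held it followed by A. The word of SiREV1#2 was in 1.3% and that of the scramble siRNA in 3.1%. A match is a description of the sequence, and binding was not measured.

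**Figure D1:**
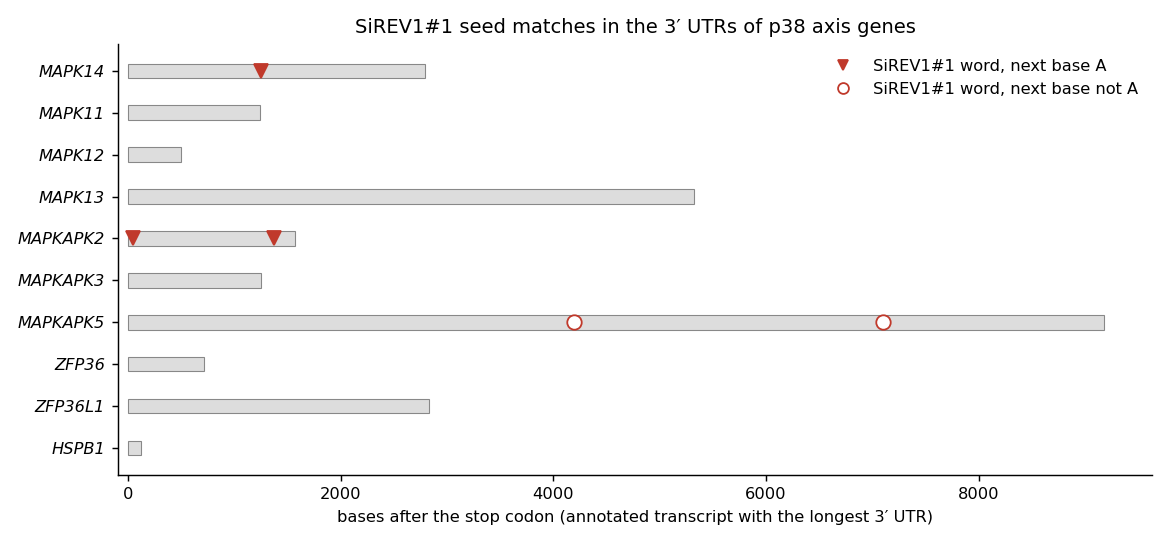
Grey bars are the longest annotated 3′ UTR of each member, in bases after the stop codon, and markers are copies of the SiREV1#1 seed match (filled triangles: next base A; open circles: next base not A). MAPKAPK2 holds 2 filled markers, MAPK14 holds 1 and MAPKAPK5 holds 2 open ones.

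Total counts were between 13059082 and 20166451 per library, the lowest in SiREV1#1 replicate 1. The count column of SiREV1#2 replicate 3 repeats that of replicate 2 and was counted once, so tests on counts have 8 libraries and FPKM values (fragments scaled to transcript length and library size) have 9. Replicate 1 stood apart from replicates 2 and 3 in every group, and SiREV1#1 replicate 1 also differed from the other replicate 1 libraries in several members, as given below. Of 7 A549 markers, KRT8, KRT18, AKR1C1, AKR1B10 and ALDH1A1 were at 817 FPKM or more in every library, while KRT19 and EPCAM did not pass 2.38. Of 10 markers of blood, endothelium and fibroblasts listed, 9 stayed at or under 1.57 FPKM, and CD14, between 5.04 and 5.89 in replicate 1 of each group, was at most 0.43 elsewhere. CDKN2A, deleted in A549, was between 0.07 and 0.73. REV1 was at 7.23, 7.90 and 8.44 FPKM with scramble siRNA, at 2.60, 2.92 and 3.36 after SiREV1#1 and at 3.62, 3.36 and 3.18 after SiREV1#2, with no overlap between either siRNA and scramble. The change of REV1 passed the test after SiREV1#1 (edgeR, adjusted p = 0.042) and, after SiREV1#2, with the replicate number as a block (adjusted p = 0.0099) but not without it (adjusted p = 0.15).

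Among the p38 kinases, MAPK14 (p38α), the form found in most tissues, was the most abundant and was lower after SiREV1#1. Its level was 14.3, 14.3 and 16.2 FPKM in the scramble libraries, 5.11, 8.48 and 9.63 after SiREV1#1, and 12.1, 11.5 and 11.95 after SiREV1#2. The 3 groups did not overlap, and SiREV1#1 replicate 1 was the lowest library. The group means were 14.9 ± 1.11, 7.74 ± 2.35 and 11.8 ± 0.327 (SD, n = 3). Within same-numbered libraries, on the scale of log2(FPKM + 0.1), the difference was -1.46, -0.75 and -0.75 for SiREV1#1 and -0.24, -0.32 and -0.44 for SiREV1#2. MAPK14 thus lay below its scramble partner in 3 of 3 pairs for each siRNA.

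In edgeR's quasi-likelihood fit without a block, the log2 fold change of MAPK14 was -0.83 ± 0.21 (SE) after SiREV1#1, with an adjusted p of 0.22. With the replicate number as a block the change was the same, -0.83 ± 0.18, and passed the test (adjusted p = 0.023), and it also passed in DESeq2 (adjusted p = 0.0094). Without SiREV1#1 replicate 1, the blocked edgeR fit gave -0.63 and an adjusted p of 0.0092. After SiREV1#2 it was -0.24 ± 0.23 (adjusted p = 1.0; 0.72 with the block). Between the siRNAs the difference was -0.59 ± 0.23 (adjusted p = 0.34), or -0.65 ± 0.21 (adjusted p = 0.066) with the block, so a difference between them did not pass in edgeR on all libraries, whereas limma-trend on log2(FPKM + 1) with the block called it (adjusted p = 0.03). On replicates 2 and 3 alone, where SiREV1#2 has 1 library, edgeR called MAPK14 lower after SiREV1#2 (-0.41, adjusted p = 0.0039) and lower with SiREV1#1 than with SiREV1#2 (-0.26, adjusted p = 0.034). The comparisons of each siRNA with scramble siRNA use the same scramble libraries.

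The remaining p38 kinases were lower in level and did not pass the test in any comparison in edgeR on all libraries, with or without the block. MAPK11 (p38β), the closest relative of MAPK14, was at 2.10, 2.91 and 2.40 FPKM with scramble siRNA, 1.07, 3.09 and 2.87 after SiREV1#1 and 2.69, 3.66 and 3.77 after SiREV1#2. The groups overlapped, and SiREV1#1 replicate 1 was again the lowest. MAPK12 (p38γ), known best from muscle, was at 4.91, 1.79 and 1.99 FPKM with scramble siRNA, 3.49, 3.04 and 2.52 after SiREV1#1 and 2.72, 1.29 and 1.34 after SiREV1#2. It was highest in replicate 1 of each group and lay below its scramble partner in 3 of 3 pairs after SiREV1#2. MAPK13 (p38δ) was between 0.16 and 0.33 FPKM in all 9 libraries.

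Of the 50-base words of the annotated MAPK12 transcripts, 28.1% also occur in other genes, mainly HDAC10 on the same strand, so reads from them could be counted to either gene and its level is uncertain. MAPK11 and MAPK14 share no such word with another gene. Summed over the p38 kinases, the level ranged from 19.2 to 21.6 FPKM with scramble siRNA, from 9.9 to 15.2 with SiREV1#1, and with SiREV1#2 from 16.6 to 17.8. MAPK14 made up 66.0% to 77.6% of that sum in the scramble libraries, 51.6% to 63.4% after SiREV1#1 and 67.9% to 69.2% after SiREV1#2. The p38 sum was thus lower in all libraries of either REV1 siRNA than in any scramble library, and lowest in the SiREV1#1 libraries.

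**Figure D2:**
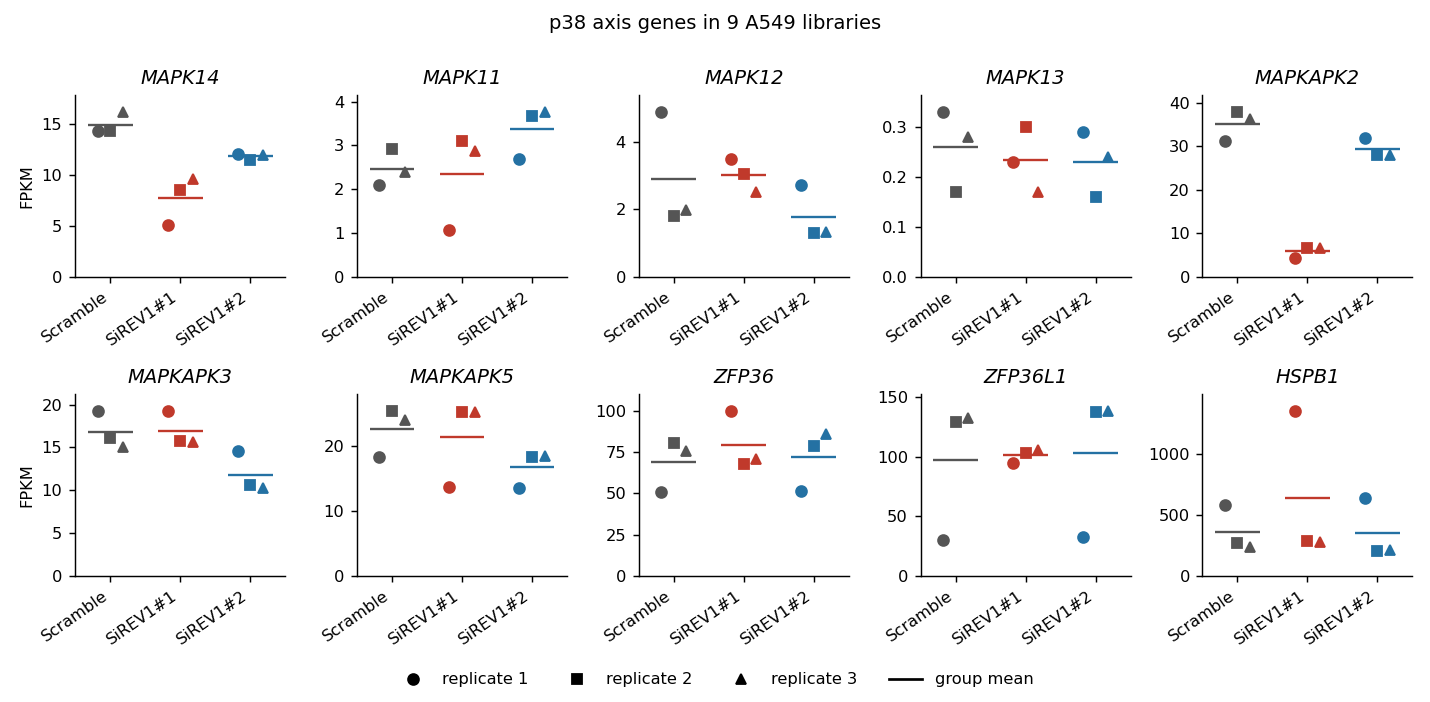
FPKM of the 10 members in each library (vertical axes start at 0 and differ between panels), with one marker shape per replicate number and a line at each group mean. MAPKAPK2 is between 4.35 and 6.58 in the SiREV1#1 libraries and between 27.95 and 37.95 in all others, and MAPK14 is lowest in the SiREV1#1 libraries.

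MAPKAPK2, the kinase through which p38 reaches the AU-rich binding proteins, was at 31.3, 37.95 and 36.2 FPKM in the scramble libraries and at 4.35, 6.58 and 6.55 after SiREV1#1. After SiREV1#2 it was at 31.8, 27.95 and 28.0. The log2 fold change after SiREV1#1 was -2.51 ± 0.20 (SE), a level 5.70 times lower than with scramble siRNA, and after SiREV1#2 it was -0.20 ± 0.21. Over all 14205 genes tested it stood at place 19 from the lowest log2 fold change after SiREV1#1 and at place 3750 after SiREV1#2. These values chose the gene and are a description. By same-numbered pairs SiREV1#1 differed from scramble siRNA by -2.82, -2.51 and -2.45 (log2), and SiREV1#2 differed by 0.03, -0.44 and -0.37. The level therefore lay under the scramble partner by a similar amount in all 3 pairs after SiREV1#1, including replicate 1. Both groups had REV1 at a like level: its log2 fold change was -1.26 ± 0.17 after SiREV1#1 and -1.33 ± 0.20 after SiREV1#2.

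The MAPKAPK2 gene lies on the plus strand of chromosome 1 (chr1:206684944-206734283) and shares no 50-base word with another gene. As shown above, its 3′ UTR holds 2 copies of the SiREV1#1 seed match. In the edgeR fit with a block, 13.9% of the 2166 genes with that word in the 3′ UTR were lower after SiREV1#1, against 5.81% of the 11649 genes without it. Where the word was followed by A, as in MAPKAPK2 and MAPK14, the share was 20.6% of 534 genes. After SiREV1#2 the same holders and non-holders of the SiREV1#1 word were lower in 1.29% and 1.46% of cases. These are shares of genes, and whether the word acted on MAPKAPK2 was not tested.

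Neither paralog of MAPKAPK2 passed the test after SiREV1#1. MAPKAPK3, which shares substrates with MAPKAPK2, was at 19.3, 16.1 and 15.1 FPKM with scramble siRNA and at 19.2, 15.8 and 15.6 after SiREV1#1. After SiREV1#2 it was at 14.6, 10.7 and 10.2. The scramble and SiREV1#1 libraries overlapped and agreed within 0.05 (log2) in each pair, while all SiREV1#2 libraries lay below all others. The log2 fold change was 0.09 ± 0.22 after SiREV1#1 (edgeR, adjusted p = 1.0) and -0.38 ± 0.25 after SiREV1#2 (adjusted p = 1.0). With the block, the change after SiREV1#2 was -0.47 ± 0.14 and missed the threshold (adjusted p = 0.14), but limma-trend with the block called it (adjusted p = 0.024). The difference between the siRNAs passed in edgeR with the block (0.55 ± 0.14, adjusted p = 0.033; 0.47 ± 0.25 and adjusted p = 0.55 without it). Of its 50-base words, 4.28% occur in CISH on the opposite strand, and the sources used here do not state whether counting used strand.

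MAPKAPK5 (PRAK), a more distant relative that also binds the atypical kinase MAPK6, was at 18.4, 25.5 and 24.0 FPKM with scramble siRNA and at 13.8, 25.3 and 25.3 after SiREV1#1. After SiREV1#2 it was at 13.5, 18.4 and 18.5. Replicate 1 was lowest in every group, and in SiREV1#2 each library lay below its scramble partner, by 0.44, 0.47 and 0.37 on the log2 scale. It did not pass the test in either comparison (adjusted p = 1.0 for both, and 0.75 and 0.24 with the block), although the blocked fit without SiREV1#1 replicate 1 called it after SiREV1#2 (-0.40, adjusted p = 0.043). Of its 50-base words, 23.1% occur in other genes, mainly ADAM1A and the antisense MAPKAPK5-AS1. The copies of the SiREV1#1 word in its longest 3′ UTR went with log2 fold changes of -0.06 ± 0.22 without and -0.07 ± 0.13 with the block.

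The level of MAPKAPK2 relative to its paralogs restates the low value for which it was chosen and is given as a description. The level of MAPKAPK2 was 1.62, 2.36 and 2.40 times that of MAPKAPK3 in the scramble libraries and 2.18, 2.62 and 2.74 times after SiREV1#2, but 0.227, 0.418 and 0.419 times after SiREV1#1. MAPKAPK2 made up 45.4% to 48.0% of the summed FPKM of the family with scramble siRNA, 49.0% to 53.1% after SiREV1#2 and 11.7% to 13.8% after SiREV1#1. The sum itself was between 68.9 and 79.5 FPKM, between 56.7 and 60.0 and between 37.3 and 47.6, in that order. In the SiREV1#1 libraries the rest of the sum was MAPKAPK3 and MAPKAPK5.

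**Figure D3:**
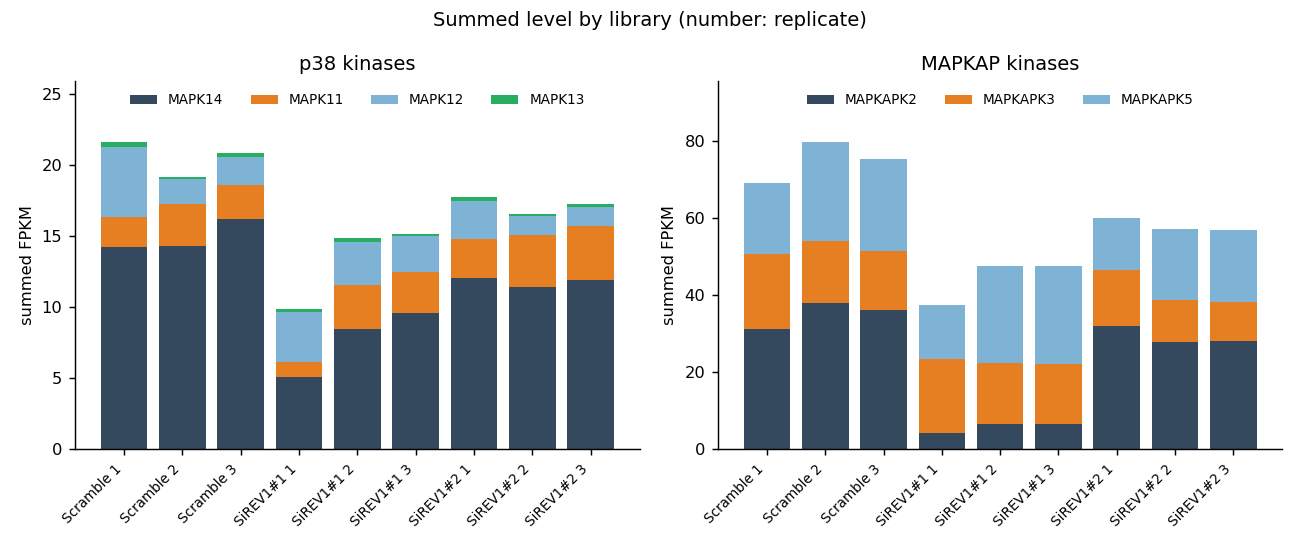
Stacked bars of FPKM in each library (axes start at 0) for the p38 kinases, left, and the MAPKAP kinases, right. The MAPKAPK2 segment is short in the 3 SiREV1#1 libraries, where MAPKAPK3 and MAPKAPK5 hold most of the bar.

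The MAPKAPK2 substrates did not pass the edgeR test on all libraries after either siRNA. The largest differences of ZFP36L1 and HSPB1 were between replicate numbers, and that of ZFP36 was within the replicate 1 pair of SiREV1#1 and scramble siRNA. ZFP36L1 was at 30.2, 129.7 and 133 FPKM with scramble siRNA, 95.0, 103 and 106 after SiREV1#1 and 32.5, 137 and 139 after SiREV1#2. Replicate 1 was about 2 log2 units lower than replicates 2 and 3 with scramble siRNA (-2.12) and SiREV1#2 (-2.08), whereas it was lower by only 0.14 after SiREV1#1. The log2 fold change after SiREV1#1 was 0.13 ± 0.64 in the fit without a block (adjusted p = 1.0), 0.47 ± 0.44 with it (adjusted p = 0.53), and -0.30 (adjusted p = 0.052) with the block once SiREV1#1 replicate 1 was left out, so its direction rests on that library. On replicates 2 and 3 alone it was -0.31 and was called (edgeR, adjusted p = 0.00072), in a fit that called 46.5% of all genes and in which SiREV1#2 has 1 library, assumed to vary like the others.

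ZFP36 was at 50.6, 80.4 and 75.9 FPKM with scramble siRNA, 100.2, 67.8 and 71.0 after SiREV1#1 and 51.7, 78.5 and 86.2 after SiREV1#2. As for ZFP36L1, SiREV1#1 replicate 1 was above its scramble partner, by 0.98 (log2), and replicates 2 and 3 were below theirs, by 0.25 and 0.10. The change after SiREV1#1 was 0.30 ± 0.30 (adjusted p = 0.90 from edgeR) and became -0.15 with the block and without SiREV1#1 replicate 1. After SiREV1#2 it was -0.06 ± 0.33 (adjusted p = 1.0).

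HSPB1 was the most abundant member, at 580.0, 265 and 236 FPKM with scramble siRNA, 1350.3, 283 and 278 after SiREV1#1 and 633, 206 and 210.3 after SiREV1#2. Replicate 1 was the highest library of each group, and SiREV1#1 replicate 1 was the highest of all. HSPB1 lay above its scramble partner in 3 of 3 pairs after SiREV1#1, by 1.22, 0.10 and 0.24 (log2), and the change of 0.97 ± 0.79 did not pass (edgeR, adjusted p = 0.85; 0.60 ± 0.24 and 0.15 with the block). Without SiREV1#1 replicate 1 it was -0.34 in the fit without a block, which keeps the high replicate 1 on the scramble side, and 0.24 with the block (adjusted p = 0.23 in edgeR). On replicates 2 and 3 alone it was 0.18 and was called (edgeR, adjusted p = 0.043). Of its 50-base words, 5.84% occur in its pseudogenes HSPB1P1 and HSPB1P2.

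**Figure D4:**
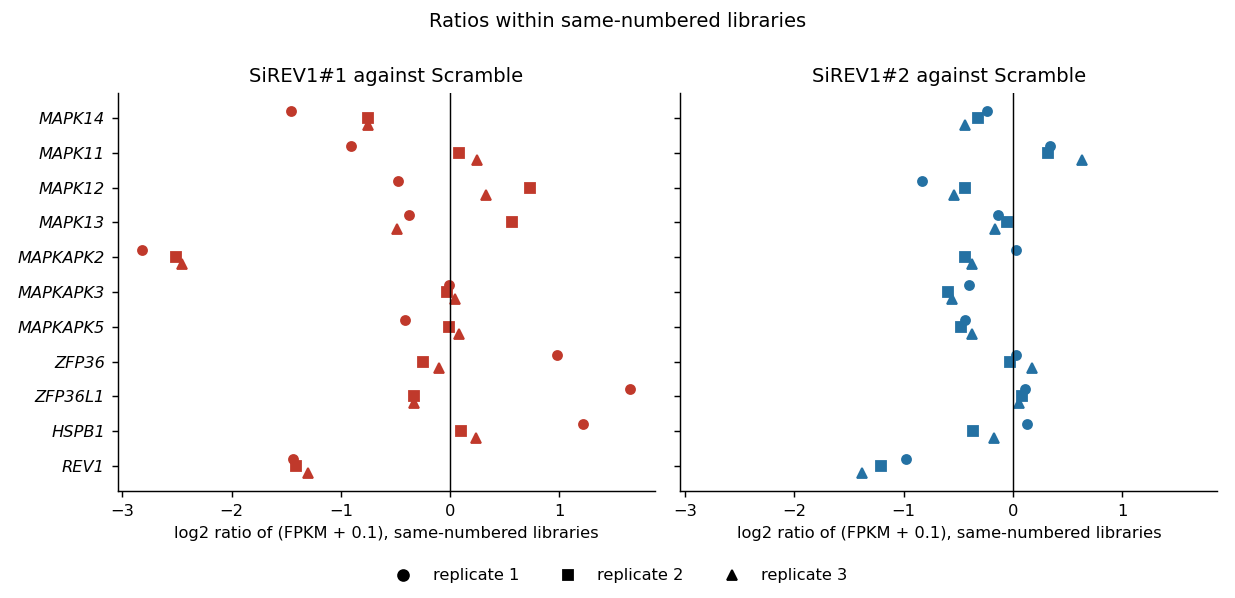
Difference on the scale of log2(FPKM + 0.1) between each siRNA library and the scramble library of the same replicate number, for the 10 members and REV1. MAPKAPK2, MAPK14 and REV1 lie left of 0 in all 3 SiREV1#1 pairs, while ZFP36, ZFP36L1 and HSPB1 have replicate 1 far to the right of replicates 2 and 3.

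Counted together, 0 of the 9 members other than MAPKAPK2 passed the edgeR test without a block after SiREV1#1, where 0.296% of 14205 genes passed, and 1 of 9, MAPK14, had an unadjusted p under 0.05, against 9.75% of all genes. With the block 1 of 9 passed (MAPK14, lower), beside 12.3% of all genes. After SiREV1#2, 0 of 9 passed in edgeR with or without the block (0.0% and 1.91% of all genes), with 0 and 3 at an unadjusted p under 0.05, and DESeq2 also called 0. Between the siRNAs, 0 of 9 passed without the block (0.676% of all genes), with 1 (MAPK14) at an unadjusted p under 0.05 and 0 called by DESeq2, and 1 of 9 passed with the block (MAPKAPK3, higher after SiREV1#1), beside 17.6% of all genes called and 8.75% called higher. Limma-trend with the block called 1, 1 and 4 of 9 in these 3 comparisons, beside 15.5%, 8.61% and 30.8% of all genes. The blocked edgeR fit without SiREV1#1 replicate 1 called 1, 2 and 4 of 9, beside 24.3%, 11.7% and 28.5%. On replicates 2 and 3 alone, where the lone SiREV1#2 library is assumed to vary like the others, edgeR called 4, 5 and 6 of 9, beside 46.5%, 38.4% and 54.4%. The FPKM of the groups did not overlap for 1 of 9 members after SiREV1#1 (18.5% of all genes), for 2 of 9 after SiREV1#2 (15.1%) and for 2 of 9 between the siRNAs (22.4%). The exact two-sided permutation test on FPKM, made for 27 pairs of member and comparison, cannot go below p = 0.1 with 3 libraries against 3, and its smallest adjusted p was 0.54.

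Some of the transcripts that ZFP36 and its relatives act on were lower after SiREV1#1 in the fit with the replicate block. Of a list of 40 genes with known AU-rich control, chosen with earlier results of these data known, 39 were tested. With the block, 13 of 39 (33.3%) were lower after SiREV1#1 and 1 (LATS2) was higher, and the other 25 did not pass, while 6.96% of all genes were lower and 5.32% higher. The median log2 fold change of the list was -0.40, against 0.0 for all genes. Without the block 0 of 39 passed in edgeR, with 4 at an unadjusted p under 0.05 (10.3%, beside 9.75% of all genes), and DESeq2 also called 0. In that edgeR fit 32 of 39 had a negative log2 fold change and the median was -0.38. In the blocked fit without SiREV1#1 replicate 1, 21 of 38 were lower, beside 13.1% of all genes.

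The genes that fell were mostly cytokines and chemokines. IL6, the interleukin that signals through STAT3, was at 0.18, 9.63 and 11.3 FPKM with scramble siRNA, 0.0, 0.82 and 0.92 after SiREV1#1 and 0.40, 10.3 and 9.20 after SiREV1#2. Each SiREV1#1 library lay below its scramble partner, and replicate 1 was low in every group. The change was -3.57 ± 0.27 (edgeR with the block, adjusted p = 0.00094). CXCL8 (interleukin 8), which attracts neutrophils, was at 19.3, 320 and 351 FPKM with scramble siRNA, 6.50, 66.5 and 63.8 after SiREV1#1 and 35.4, 454 and 461 after SiREV1#2. Its change after SiREV1#1 was -2.09 ± 0.20 with the block (adjusted p = 0.0015, edgeR). CXCL3 was at 9.15, 56.1 and 53.1, then 3.27, 12.3 and 12.7, then 12.3, 52.4 and 54.2 FPKM in the same order, and it fell by 1.90 ± 0.19 on the log2 scale (adjusted p = 0.0016, edgeR with the block). CXCL1, CXCL2 and CXCL3 are close paralogs, and the counting may have split their reads.

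The interleukin IL1A fell by 2.99 ± 0.37 (log2, edgeR with the block), from levels of 0.13, 1.17 and 1.42 FPKM to 0.03, 0.14 and 0.16. Others that fell with the block included CXCL1, CXCL2, IL11, CSF3 and LIF, which encode secreted signals, IER3, an early response gene, PIM1, a kinase, and PTGS2, the inducible cyclooxygenase. Their log2 fold changes were between -3.13 (IL11) and -0.55 (LIF). Of the 13, which the fit had picked as lower, 11 were lower in 3 of 3 pairs. Over the whole list this held for 18 of 39 genes, beside 32.6% of all genes. TNF, the best known ZFP36 target, was at 0.07, 1.29 and 0.99 FPKM with scramble siRNA and 0.14, 0.30 and 0.31 after SiREV1#1, and did not pass (-1.53 ± 0.49, adjusted p = 0.082 from edgeR with the block). MYC, CCND1, NFKBIA and VEGFA had log2 fold changes between -0.05 and 0.11 and did not pass.

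After SiREV1#2 the AU-rich list gave another count. With the block, 0 of 39 were lower and 2 were higher: BIRC3, an inhibitor of cell death (1.06 ± 0.17, adjusted p = 0.029 in edgeR), and LATS2, a Hippo pathway kinase (0.79 ± 0.14, adjusted p = 0.037). The share of all genes was 1.41% lower and 0.493% higher, and the list's median was 0.15. By pairs, 17 of 39 were higher in 3 of 3, beside 23.3% of all genes, and 5 were lower in 3 of 3, beside 28.7%. CXCL8 was above its scramble partner in 3 of 3 pairs and did not pass (0.60 ± 0.22, adjusted p = 0.22, edgeR with the block). The difference between the siRNAs, with the block, was called for 19 of 39 genes, 18 of them lower after SiREV1#1 (46.2%, beside 8.87% of all genes), IL6 and CXCL8 included (-3.81 ± 0.32 and -2.68 ± 0.23, adjusted p = 0.00098 and 0.00096).

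The AU-rich word TATTTAT was in the 3′ UTR of 30 of the 39 listed genes, against 35.1% of all tested genes. The list was chosen for AU-rich control, so a share above that of all genes follows from the choice. All 13 that fell held the word, and so did LATS2, which rose, and TNF, which did not pass. Whether the word bears on the fall was not tested. The SiREV1#1 seed match was in the 3′ UTR of 5 of the 39 (12.8%, against 15.7% of all genes) and of 1 of the 13, CXCL8. Replicate 1 had far lower levels of many listed genes than replicates 2 and 3 in each group, as shown above for IL6 and CXCL8. The part of this shift in the counts was not tested beyond the fits with the block and without SiREV1#1 replicate 1.

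**Figure D5:**
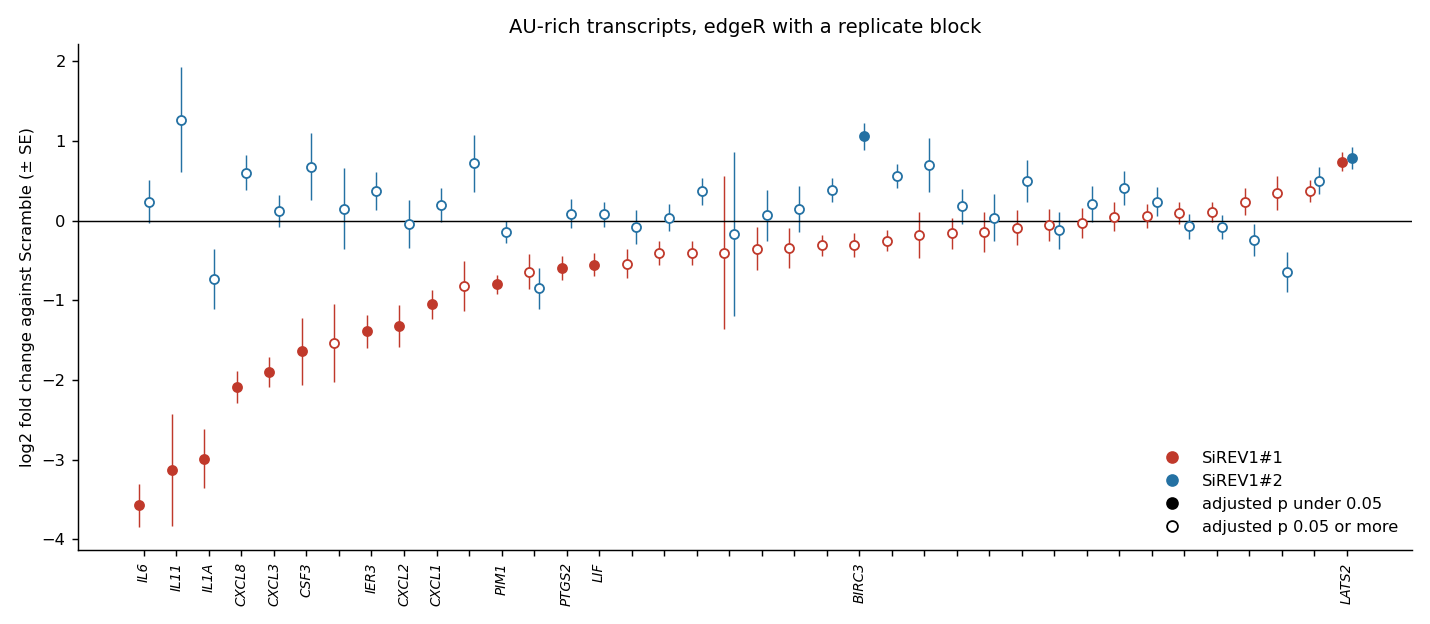
Log2 fold change against scramble siRNA (± SE, edgeR with a replicate block) of 38 of the AU-rich transcripts tested, ordered by the value after SiREV1#1, with filled circles where the adjusted p is under 0.05 and names for genes that passed after either siRNA. The SiREV1#1 values of the 12 plotted genes that fell lie between -3.57 and -0.55, and the SiREV1#2 values pass only for BIRC3 and LATS2.

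The other parts of the pathway showed mixed changes. In edgeR without the block, 0 genes of the upstream, phosphatase, effector and substrate lists passed after either siRNA. At an unadjusted p under 0.05 there were 0, 0, 3 and 3 of them after SiREV1#1 and 3, 0, 1 and 3 after SiREV1#2, beside 9.75% and 5.48% of all genes, and DESeq2 called 0, 0, 1 and 2, and then 1, 0, 1 and 2. With the block, 3 of 24 upstream genes were lower after SiREV1#1 (12.5%, beside 6.96% of all genes) and 0 were higher. MAP2K6, a kinase that activates p38, was at 5.88, 2.33 and 2.51 FPKM with scramble siRNA and 2.78, 1.01 and 0.96 after SiREV1#1, and it fell by 1.15 ± 0.16 (log2, adjusted p = 0.0051). TAOK3, a kinase further upstream, fell by 0.54 ± 0.13, and SPAG9, a scaffold for stress kinases, by 0.66 ± 0.18 (adjusted p = 0.037 and 0.048, edgeR with the block). After SiREV1#2, 0 of 24 passed with the block in edgeR, with 5 at an unadjusted p under 0.05 (18.1% of all genes). There the changes of MAP2K6, TAOK3 and SPAG9 were -0.25, -0.19 and 0.19. The difference between the siRNAs passed for MAP2K6 and SPAG9 and not for TAOK3 (edgeR with the block, adjusted p = 0.015, 0.028 and 0.15).

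Of 11 phosphatases that act on p38 or its relatives, with the block, 2 were higher and 1 lower after SiREV1#1, beside 5.32% and 6.96% of all genes. DUSP8 rose by 0.94 ± 0.14 (edgeR, adjusted p = 0.0061) and DUSP16 by 0.50 ± 0.13 (adjusted p = 0.041), and PPM1B fell by 0.88 ± 0.13 (adjusted p = 0.0062). DUSP8 went from 1.44, 15.4 and 15.7 FPKM to 2.91, 27.6 and 27.2, and it was at 2.34, 26.1 and 25.7 after SiREV1#2, where it did not pass (0.71 ± 0.16, adjusted p = 0.070). After SiREV1#2, 0 of 11 passed with the block, with 3 at an unadjusted p under 0.05 in edgeR (18.1% of all genes). DUSP16 was 0.43 and PPM1B 0.34 there. The difference between the siRNAs passed for PPM1B and not for DUSP8 or DUSP16 (edgeR with the block, adjusted p = 0.0028, 0.36 and 0.79).

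Among 20 p38 effectors other than the MAPKAP kinases, 2 rose and 2 fell after SiREV1#1 with the block (10.0% each way, beside 5.32% and 6.96% of all genes). Those that rose were MKNK2 (1.04 ± 0.13, adjusted p = 0.0035) and MKNK1 (0.66 ± 0.12, adjusted p = 0.013), the kinases of the translation factor eIF4E. MKNK2 was at 48.8, 31.0 and 29.4 FPKM with scramble siRNA and 79.0, 56.3 and 53.5 after SiREV1#1. Those that fell were DDIT3 (CHOP), a stress transcription factor (-0.76 ± 0.13, adjusted p = 0.012), and CDC25B, a cell cycle phosphatase (-0.61 ± 0.15, adjusted p = 0.034, all from edgeR). After SiREV1#2, 0 of 20 passed with the block, with 5 at an unadjusted p under 0.05 in edgeR (18.1% of all genes). There MKNK2 was 0.51, MKNK1 0.05, DDIT3 0.26 and CDC25B -0.29. The difference between the siRNAs passed with the block for MKNK2, MKNK1 and DDIT3 and not for CDC25B (edgeR, adjusted p = 0.047, 0.025, 0.0059 and 0.23).

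Of 29 further substrates and partners of the MAPKAP kinases, 3 rose and 3 fell after SiREV1#1 with the block (10.3% each way, beside 5.32% and 6.96% of all genes). Not all of them belong to MAPKAPK2: MAPK6 is a partner of MAPKAPK5 and is counted again below among other MAP kinases. CRYAB, a small heat shock protein like HSPB1, was at 2.23, 1.05 and 1.40 FPKM with scramble siRNA and 6.96, 3.11 and 3.78 after SiREV1#1, and rose by 1.61 ± 0.23 (edgeR, adjusted p = 0.0058). LIMK1, which phosphorylates cofilin, rose by 1.02 ± 0.13 (adjusted p = 0.0045), and EEF2K, the kinase of elongation factor eEF2, by 0.63 ± 0.16 (adjusted p = 0.039). CDC25C, a mitotic phosphatase, fell by 0.76 ± 0.15 (adjusted p = 0.019), as did AGO2, an effector of RNA interference, and MAPK6. After SiREV1#2, 1 of 29 passed (1.91% of all genes), HSF1, the heat shock transcription factor, at -0.88 ± 0.15 (edgeR with the block, adjusted p = 0.033), and it was 0.15 ± 0.13 after SiREV1#1. CRYAB was -0.17, LIMK1 0.42, EEF2K -0.42 and CDC25C -0.49 after SiREV1#2. AGO2 did not pass in edgeR with the block after SiREV1#2, but DESeq2 and blocked limma-trend called it lower after both siRNAs. The blocked difference between the siRNAs passed for CRYAB, LIMK1 and EEF2K, and not for AGO2 or CDC25C (adjusted p = 0.33 for CDC25C, edgeR).

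MAPK6 (ERK3), the partner of MAPKAPK5, differed most clearly between the siRNAs. It was at 39.1, 44.0 and 50.8 FPKM with scramble siRNA, 15.5, 21.6 and 21.4 after SiREV1#1 and 56.7, 77.7 and 75.9 after SiREV1#2. The 3 groups did not overlap, with SiREV1#1 lowest and SiREV1#2 highest. It was the only gene of the 6 lists that passed a comparison in the edgeR fit without a block, at -1.75 between the siRNAs (adjusted p = 0.024), and -1.81 ± 0.14 with the block (adjusted p = 0.00081). Against scramble siRNA, the blocked values were -1.13 ± 0.12 (adjusted p = 0.0025) and 0.69 ± 0.14 (adjusted p = 0.060). Among 10 other MAP kinases, 2 fell after SiREV1#1 with the block (6.96% of all genes). They were MAPK6 and the JNK kinase MAPK8 (-0.70 ± 0.15, adjusted p = 0.023, edgeR). DESeq2 called MAPK6 lower and MAPK9 higher after SiREV1#1. MAPK9 missed the threshold in edgeR with the block (0.39 ± 0.12, adjusted p = 0.066). After SiREV1#2, 0 passed with the block, with 4 at an unadjusted p under 0.05 (18.1% of all genes) and 0 called by DESeq2. MAPK6 held no copy of the SiREV1#1 word in its 3′ UTR and MAPK8 held 1. MAP2K6, TAOK3, CDC25B and AGO2, which fell, held 1 copy each, as did MKNK2 and EEF2K, which rose. SPAG9, PPM1B, DDIT3, CDC25C, MKNK1, DUSP8, DUSP16, CRYAB and LIMK1 held none. By list the word was in 30.0% of effectors, 27.6% of substrates and partners and 20.0% of other MAP kinases. It was in 16.7% of upstream genes and 9.1% of phosphatases, against 15.7% of all genes.

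Over the 9 libraries, the transcripts most like MAPKAPK2, by Pearson correlation of log2(FPKM + 1) among 11426 other genes with a mean FPKM over 1, were PDCD6, RASSF3, SAE1 (each r = 0.992), SLC25A3 and SLC35B1 (each r = 0.990). Each of the 5 was low in all SiREV1#1 libraries: RASSF3, for example, was at 15.8, 15.8 and 14.5 FPKM with scramble siRNA, 2.52, 3.17 and 2.87 after SiREV1#1 and 16.4, 12.5 and 12.1 after SiREV1#2. RASSF3 and SAE1 held 1 copy of the SiREV1#1 word in the 3′ UTR and the other 3 held none. MAPK14 stood at place 226 in that order (r = 0.901), MAPK11 at place 2920 (r = 0.431), and the other measured members had r between -0.392 and 0.00645. MAPKAPK2 was chosen for its low level after SiREV1#1, so low values there in the 5 transcripts most like it follow from the choice. The place of MAPK14 rests on the same values. The libraries share their transfection group and replicate number, so these values describe a shared pattern only.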

How the data were processed

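RNA from A549 cells was sequenced on the BGISEQ-500 platform in 9 libraries. The authors estimated from each library's reads, and deposited, FPKM values and expected counts per gene (42.6% of the counts are not whole). The submitters' processing notes name StringTie 1.3.3b and hg38, with the role of each not given in the sources used here, nor strandedness. Groups and replicate numbers came from the sample labels. Expected counts were rounded and tested in edgeR 4.0.16 (TMM, filterByExpr, 14205 genes, quasi-likelihood F test, Benjamini-Hochberg adjustment over all genes, threshold 0.05) in one fit of 3 groups, without a block. SEs were derived from each gene's F statistic and log2 fold change. FPKM values were tested by exact permutation (scipy 1.17.1) and by limma-trend (limma 3.58.1), and DESeq2 1.42.0 was an alternative. Levels and FPKM ratios use FPKM, which is scaled by length, with a pseudocount of 0.1.

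Same-numbered libraries deviated together from their group means (9 pairs, correlations 0.734 to 0.929 over 11427 genes with a mean FPKM over 1). This is mainly the shift of replicate 1, since the difference between replicates 2 and 3 correlated by -0.218 to 0.175 between groups. The blocked values are therefore given wherever they change a call. Members and gene lists were chosen with earlier results of these data known. Named genes are the members, REV1, up to 4 genes per list and comparison that passed with or without the block, by smallest p, and the 5 most correlated with MAPKAPK2. AGO2, TNF, MYC, CCND1, NFKBIA, VEGFA and the other AU-rich genes named were chosen after their values were seen. Sequences and positions are from GENCODE release 29 on GRCh38. The fits were tested on simulated counts with planted changes. These counts had no shift of replicate 1 and less spread than the fit without a block found (coefficient of variation 0.412). They therefore do not measure how that fit performs on these libraries. No protein or genome sequence was used here. Some list genes are counted but not reported here by name.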

Additional observations from a re-analysis of the deposited data

Results flagged for a closer look

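The test between SiREV1#1 and SiREV1#2 called 1 listed gene, MAPK6, without a replicate block and 1 of the 9 members, MAPKAPK3, with the block, which also called other listed genes, 19 of 39 in the AU-rich list among them. MAPK6 differed by -1.75 (log2) without a replicate block. MAPKAPK3 differed by 0.55 (log2) with the block, and this call was not made by edgeR without it. With 3 libraries a group, no library could be set apart from its own group by a rule on single values.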

How the results depend on the processing

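Counts of calls depended most on how replicate 1 was treated. Of the 9 members other than MAPKAPK2, none passed after SiREV1#1 in the edgeR fit of 8 libraries without a block, while 1 did with the replicate block, with DESeq2, with blocked limma-trend and with the block but without SiREV1#1 replicate 1 (a fit added after seeing the data), and 4 did on replicates 2 and 3 only. After SiREV1#2 the blocked limma-trend fit called 1, the added fit 2 and replicates 2 and 3 called 5. Between the siRNAs the replicate block gave 1, blocked limma-trend 4, the added fit 4 and replicates 2 and 3 gave 6. AU-rich genes lower after SiREV1#1 numbered 13 with the replicate block, 12 with blocked limma-trend, 21 in the added fit and 30 on replicates 2 and 3, and AU-rich genes called after SiREV1#2 numbered 2, 5, 8 and 24. Of the genes in the other 5 lists (91 tested, 90 in the added fit and 92 on replicates 2 and 3), SiREV1#1 gave 17 with the replicate block, 4 with DESeq2, 1 with limma-trend on log2(FPKM + 1), 1 on log2(FPKM + 0.1), 20 with blocked limma-trend, 28 in the added fit (24.3% of all genes) and 51 on replicates 2 and 3 (46.5% of all genes). For SiREV1#2 these were 1 with the replicate block, 4 with DESeq2, 13 with blocked limma-trend, 18 in the added fit (11.7%) and 53 on replicates 2 and 3 (38.4%). Leaving out each library in turn without a block gave 0 in each of these counts (range 0 to 0). Beside the AU-rich counts after SiREV1#1, 6.96% of all genes were lower with the replicate block and 13.1% in the added fit. Blocked limma-trend called 15.5% of all genes there, in either direction. After SiREV1#2, 1.91% were called with the replicate block and 8.61% with blocked limma-trend. The shares given above for replicates 2 and 3, and for the added fit after SiREV1#2, also apply to the AU-rich list.

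Among the members, the replicate block changed the call of MAPK14 after SiREV1#1 and of MAPKAPK3 between the siRNAs and no other. Directions of small changes turned. After SiREV1#1, on replicates 2 and 3 and in the added fit, MAPK11 was 0.18 and 0.19, MAPK13 was 0.06 and 0.11, MAPKAPK5 was 0.02 and 0.02, ZFP36 was -0.16 and -0.15, and ZFP36L1 was -0.31 and -0.30 (log2). After SiREV1#2, ZFP36 was 0.06 in all 3 limma-trend fits, 0.01 on replicates 2 and 3 and 0.05 in the added fit. ZFP36L1 was 0.08, 0.07 and 0.13 in the same order, and HSPB1 was -0.13, -0.28 and -0.08, and -0.21 with the replicate block. With each library left out in turn, the range after SiREV1#1 was -0.25 to 0.29 for MAPK11, -0.10 to 0.76 for MAPK12, -0.30 to 0.16 for MAPK13, -0.08 to 0.20 for MAPKAPK3, -0.15 to 0.11 for MAPKAPK5, -0.30 to 0.42 for ZFP36L1 and -0.34 to 1.49 for HSPB1. After SiREV1#2 it was -1.16 to 0.12 for MAPK12, -0.68 to 0.20 for MAPK13, -0.37 to 0.20 for ZFP36, -1.53 to 0.50 for ZFP36L1 and -0.79 to 0.87 for HSPB1. MAPK14 (-0.94 to -0.67) and MAPKAPK2 (-2.60 to -2.40) stayed negative after SiREV1#1 in these fits. After SiREV1#2 both stayed negative as well (-0.40 to -0.10 and -0.31 to -0.10). The causes of these shifts were not tested. In edgeR on all 8 libraries without the block, with the values of replicate 1 far from the others, small changes of members could not be resolved. DESeq2, also without a block, called MAPK14 after SiREV1#1.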
